A study of Mus musculus with 132 samples.

Results

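The genes described are 9 that write, copy, oxidise or remove methyl groups on cytosine: the dioxygenases Tet1, Tet2 and Tet3, the DNA methyltransferases Dnmt1, Dnmt3a and Dnmt3b, the methyltransferase cofactor Dnmt3l, the maintenance adaptor Uhrf1 and the glycosylase Tdg. They were chosen by name, with earlier results of these data known, and all 9 were found among the 32245 genes of the count table. Single cells of mouse preimplantation embryos from C57BL/6 and DBA F1 crosses were sequenced with Smart-seq2, a method that reads whole transcripts one cell at a time. Embryos had been cultured since the 2-cell stage with a mimic, a synthetic copy of the microRNA miR-381-3p, or with a scrambled control mimic. They were taken apart on embryonic day 2.5, with 8 cells, or on embryonic day 3.5, with 32 cells. There were 30 cells of 8-cell control, 24 of 8-cell mimic, 39 of 32-cell control and 39 of 32-cell mimic embryos. Every group, control included, was exposed to a synthetic RNA, and there was no untreated group. The study's text gives the higher mimic dose to the 8-cell and the lower to the 32-cell embryos, so dose and stage cannot be told apart. Each group came from a few embryos and no label ties a cell to its embryo, so a group counts as 1 sample. For that reason no test was run and no p-value is given.

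Methylation of CpG sites is placed anew by DNMT3A and DNMT3B, which DNMT3L assists, and is copied at replication by DNMT1, which UHRF1 brings to half-methylated DNA. TET enzymes oxidise the methyl group, and TDG cuts out some of the oxidised bases so that repair can restore plain cytosine. Between fertilisation and the blastocyst the mouse genome loses most of its methylation, while imprinted regions keep theirs, and new methylation follows around implantation.

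The agent itself is short. Mature mmu-miR-381-3p is encoded on chromosome 12 (GRCm38.p6, chr12:109726870-109726891, plus strand; sequence from RefSeq), and it is shown here with its seed, bases 2 to 8, in capitals.
mmu-miR-381-3p: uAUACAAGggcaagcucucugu
The motif searched in 3′ UTRs was CTTGTATA, the complement of bases 2 to 8 followed by A, together with its 7-base parts CTTGTAT and TTGTATA where no 8-base match covered them, on the transcript strand and in the longest 3′ UTR of each gene in GENCODE M21. The 8-base motif was present in 3.12% of 20741 genes and any of the 3 forms in 21.5%. Tet2 and Tet3 held the 8-base motif once each, and each also held TTGTATA once. The other 7 members held none of the 3 forms, Tet1 among them with a 3′ UTR of 7962 bases. The stretches below are the only matches in the 9 genes. Each is 30 bases long with the motif in capitals, and the mm10 position given is that of the motif alone. A match describes letters and is no proof of binding. The 3′ UTRs of Tet2 (3058 bases) and Tet3 (5669 bases) are longer than the median of 967 bases.
Tet2, chr3:133464747-133464754, minus strand: ctcgtagtttgCTTGTATAtgtactgataa
Tet2, chr3:133465267-133465273, minus strand: gtaaaaaagagTTGTATAgtaaattaaatt
Tet3, chr6:83367711-83367718, minus strand: aaaactttatcCTTGTATAtcacaataatg
Tet3, chr6:83362638-83362644, minus strand: ataattttattTTGTATAatttttaccttt

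The cells held 544866 to 3461022 counts and 3243 to 8983 detected genes each. Levels are given as CPM, the count of a gene divided by the counts outside mitochondrial genes and scaled to 1000000. A level is thus a share of a cell's own mRNA. The pooled CPM of a group is the summed count of its cells over their summed total, with an exact Poisson 95% interval, and shares of cells carry exact Clopper-Pearson intervals. Both kinds of interval describe counting error alone, take each count or cell as independent, and leave out any spread from embryo to embryo. Those of pooled CPM, and of ratios between them, also leave out the spread from cell to cell and from run to run. They are therefore narrower than the uncertainty of a group's level. All 39 cells of the 32-cell control had Y-linked counts above Xist, whereas all 39 of the 32-cell mimic had Xist (250 to 3212 CPM) and pooled Y-linked counts of 0.0376 CPM. The 32-cell groups thus differ in Xist and Y-linked transcripts as well as in the mimic, and these cannot be told apart in any comparison of mimic with control at that stage. All 9 members lie on autosomes. Cell numbers in the titles form runs, each of 1 group, and the values of those runs are given below because they are the only view of spread within a group. Defining markers of cumulus and blood cells were at or near 0, with summed levels of at most 0.0544 and 0.679 CPM in any group, and the fibroblast list reached 4.71 CPM in 32-cell mimic cells.

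A gene is called higher or lower when log2 of (pooled CPM + 1) differed by at least 1 between groups and the gene had at least 20 CPM on either side. Between stages, Tet2, Uhrf1 and Tdg were higher at the 32-cell stage in control embryos, 3 of the 9 members, each of which had at least 20 CPM on some side, against 30% of the 7469 genes measured. No member was lower, against 20.1% of genes. In mimic embryos the count was again 3, of the 8 members with at least 20 CPM, against 29.1% of 7594 genes, and 0 lower, against 18.8%, and the members named are the same 3; Tet3 was left out there for its low level. The share of members is near the background, so what follows concerns which genes moved and by how much. Between treatments, no member was called at the 8-cell stage, where 6 of 9 had at least 20 CPM and where 6.96% of 6570 genes were higher and 6.09% lower in mimic. At the 32-cell stage Tet3, Dnmt1 and Uhrf1 were lower in mimic, 3 of 9 against 5.36% of 7307 genes, and none was higher against 6.87%. As the members were chosen with earlier results of these data known, that count describes them and tests nothing. In the same comparison, the scaling of totals and the choice of runs mattered as follows. Scaling by TMM factors changed those shares to 7.08% lower and 5.45% higher, and shifted the median over all genes from 0.01 to -0.11 on the log2 scale. It also moved that median from 0.20 to 0.04 for stage in mimic. No call of a whole-group comparison was lost by it. Leaving out a run did change which members were called between treatments at the 32-cell stage. Without the first control run Dnmt1 was not called and Dnmt3l was higher. Without the second control run Tet3, under 20 CPM on both sides, was not called and Tet1 was. Dnmt1 was also lost without the second or the third mimic run, and Uhrf1 was called each time. The comparisons of stage and of treatment share groups and are not independent of each other.

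**Figure D1:**
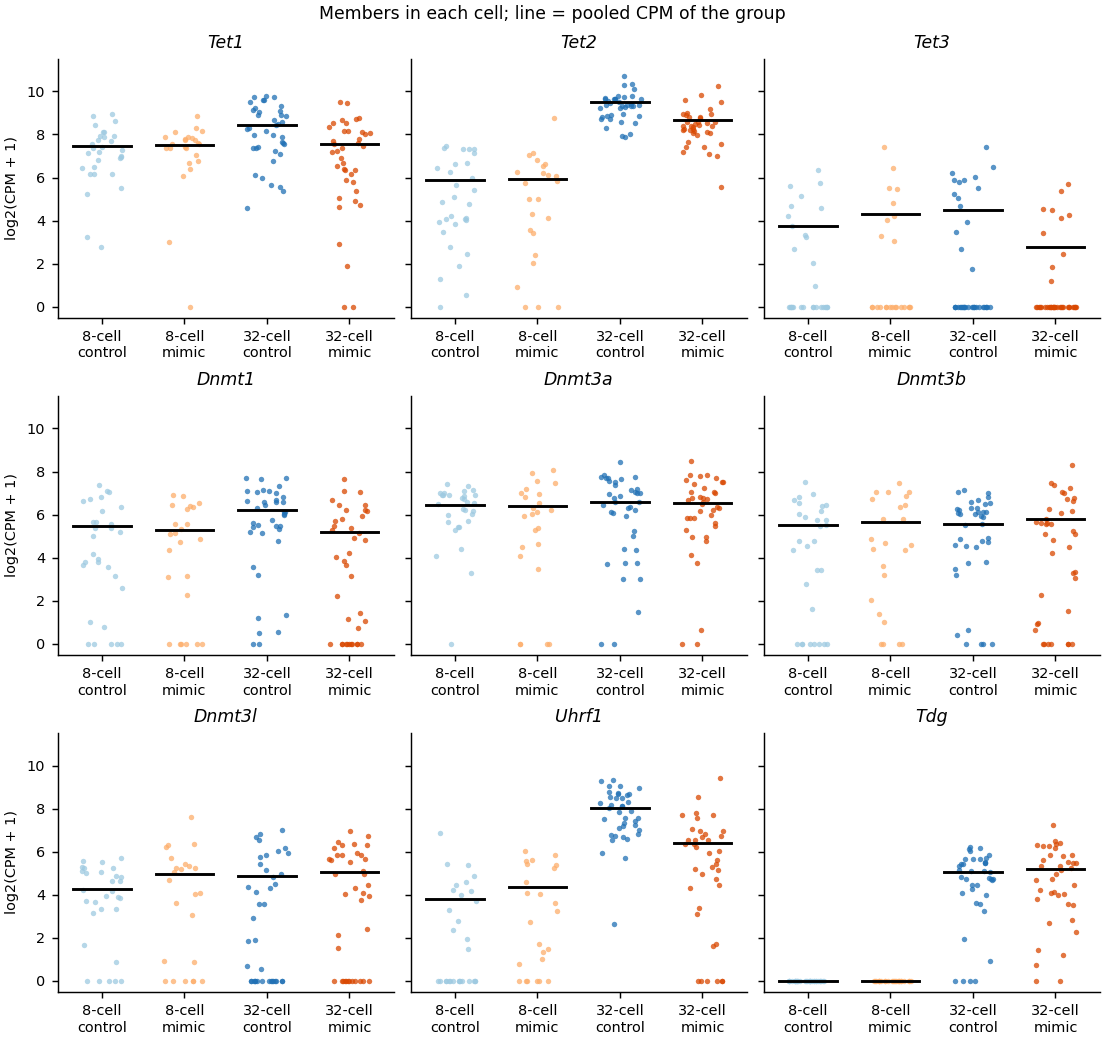
Level of each member in every cell, as log2(CPM + 1) on the vertical axis, for the 4 groups on the horizontal axis; each point is a cell and the line marks the pooled CPM of the group on the same scale. Tet2 and Uhrf1 stand higher at the 32-cell than at the 8-cell stage, and Tdg is at 0 in all 54 8-cell cells.

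Tet2, one of the dioxygenases (chromosome 3, 133463679 to 133545139, minus strand, mm10), was the only member whose control cells did not overlap between stages. In 8-cell control cells it ranged from 0 through a median of 27.2 to 175 CPM, and in 32-cell control cells from 237 through 665 to 1706 CPM. Every 32-cell control cell therefore lay above every 8-cell control cell, which held for 34 of the 7469 genes (0.455%). The pooled level went from 57.5 CPM (95% interval 55.0 to 59.97) to 727 CPM (719.9 to 733.9), a ratio of 12.6 (12.1 to 13.2) and a log2 of 3.64. Mimic cells moved from a median of 41.5 (0 to 433) to 337 CPM (46.1 to 1229), with some overlap between stages. Their pooled level was 61.0 CPM (58.3 to 63.8) at the 8-cell and 404 CPM (398.5 to 409.4) at the 32-cell stage, a ratio of 6.62 (6.32 to 6.94). The 8-cell groups were alike in pooled Tet2, with a mimic to control ratio of 1.06 (0.997 to 1.13). At the 32-cell stage mimic stood 1.80-fold below control (1.77 to 1.83), a log2 difference of -0.85 that does not reach the limit of 1, and the cells of the groups overlapped. Runs of control cells were at 699 and 768 CPM, and runs of mimic cells at 334.5, 305 and 599.6 CPM. The mimic runs were all below the control runs, though the third came near them. In the 8-cell control the run of 28 cells stood at 48.7 CPM and the run of 2 cells at 162.6 CPM. Against those 2 cells alone the log2 change with stage in control was 2.15.

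Tet1 (chromosome 10, 62804570 to 62908996, minus strand), the family member best known from pluripotent cells, was present in nearly every cell. In the 8-cell control it was at 5.80 to 490 CPM with a median of 149.8, and in the 8-cell mimic at 0 to 462 CPM with a median of 187. The 32-cell control cells reached from 23.4 through 303 to 893 CPM, and the 32-cell mimic cells from 0 through 150.2 to 734 CPM. Both stages and both treatments overlapped widely. Pooled Tet1 was 176.7 CPM (172.4 to 181) and 179 CPM (174.4 to 184) at the 8-cell stage, then 349.5 CPM (345 to 354) in control and 186 CPM (182 to 189.5) in mimic at the 32-cell stage. The ratio of stages was 1.98 (1.92 to 2.03) in control, just short of the limit, and 1.04 (1 to 1.07) in mimic. With the 2 cells of the second 8-cell control run, whose pooled Tet1 was 349.9 CPM, standing alone for that group, the log2 change with stage in control was 0.00. At the 32-cell stage mimic was 1.88-fold lower (1.84 to 1.93), with runs at 223, 123 and 207 CPM against 380.6 and 303 CPM in control. The whole groups mix classes of cells in different proportions, and Tet1 by class is given further on.

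Tet3 (chromosome 6, 83362373 to 83459084, minus strand), the dioxygenase carried in the oocyte, was scarce and rested on few cells. It had a count in 13 of 30, 9 of 24, 15 of 39 and 10 of 39 cells (8-cell control, 8-cell mimic, 32-cell control, 32-cell mimic), and its median cell was at 0 in each group. Thinning every cell to 522178 counts left 13, 9, 15 and 9 cells. The highest cells were at 81.7, 169.2, 170.4 and 51.2 CPM in that order. The cell at 169.2 CPM in 8-cell mimic had no count of Tet1, Tet2, Dnmt1, Dnmt3a, Dnmt3b or Dnmt3l, and the 8-cell mimic value rests in part on it. The 8-cell mimic group held cells with as few as 3243 detected genes, against at least 6373 in 8-cell control. The 3 highest cells held 56.4%, 71.7%, 44.9% and 60.6% of the summed CPM of their groups. Pooled Tet3 was 12.4 CPM (11.3 to 13.6), 19.1 CPM (17.6 to 20.7), 21.3 CPM (20.1 to 22.6) and 5.92 CPM (5.28 to 6.61). Mimic was 3.61-fold lower than control at the 32-cell stage (3.18 to 4.10), while its 8-cell pooled value was 1.54 times that of control (1.36 to 1.75). Between stages Tet3 in mimic went from 19.1 to 5.92 CPM, under 20 CPM on both sides and therefore uncalled. The 32-cell runs were at 18.4 and 25.7 CPM in control and at 7.07, 4.72 and 5.74 CPM in mimic. Among 8-cell cells that held Xist and no Y-linked count, Tet3 was at 7.11 CPM in 16 control cells and had no count in 3 mimic cells, in which 3 counts would be 0.734 CPM.

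Set per kilobase of the longest coding transcript, the 3 TET genes together came to 19.7 and 20.9 CPM per kb in 8-cell control and mimic, and to 105.5 and 57.5 CPM per kb at the 32-cell stage. Tet1 made up 62.4% and 59.8% of that sum at the 8-cell stage and 23.1% and 22.5% at the 32-cell stage. Tet2 went from 31.8% and 31.9% to 75.1% and 76.6%. Per kb, Tet2 exceeded Tet1 in 7 of 30 and 4 of 24 8-cell cells, and in 35 of 39 and 36 of 39 32-cell cells, control before mimic. The leading TET transcript was therefore Tet1 at the earlier and Tet2 at the later stage in both treatments, while the sum at the 32-cell stage was lower in mimic. Using the union of exons as length moved each of these shares by little, with Tet2 at 76% and 77.4% of the 32-cell sums.

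**Figure D2:**
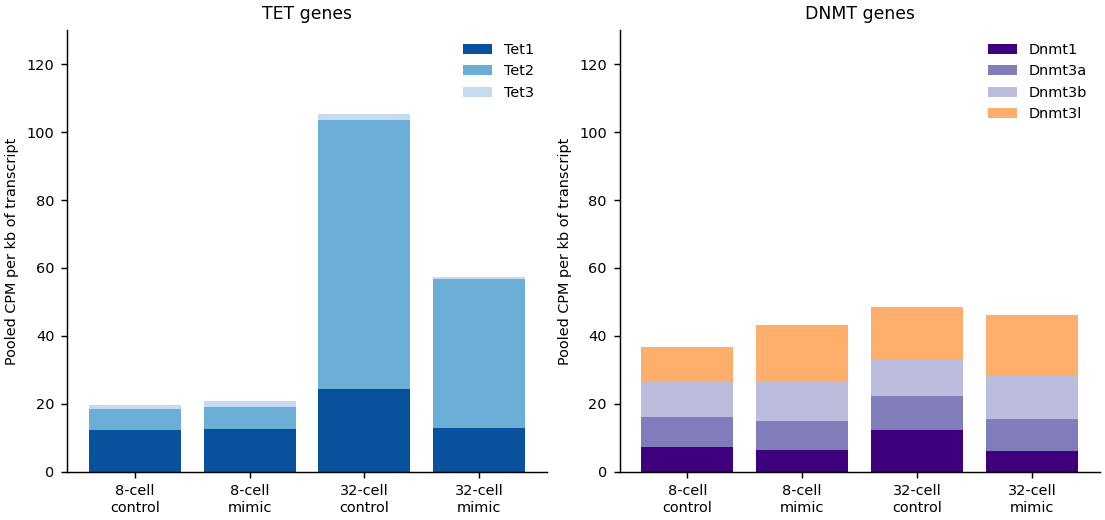
Pooled level per kilobase of longest coding transcript (CPM per kb, vertical axis from 0) of the 3 TET genes and of the 4 DNMT genes, stacked, for the 4 groups. The TET bars grow from 19.7 and 20.9 to 105.5 and 57.5 CPM per kb with Tet2 as the larger part, whereas the DNMT bars lie between 36.6 and 48.4 CPM per kb.

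Of the maintenance pair, Uhrf1 (chromosome 17, 56303321 to 56323486, plus strand), which recognises half-methylated CpG and recruits DNMT1, differed more. It was detected in 15 of 30 8-cell control cells (50%, interval 31.3 to 68.7) and 18 of 24 8-cell mimic cells (75%, 53.3 to 90.2), with medians of 0.920 and 7.07 CPM and highest cells at 117.5 and 65.4 CPM. All 39 32-cell control cells had it, from 5.19 through 237 to 647 CPM. In the 32-cell mimic, 33 of 39 cells had it (84.6%, 69.5 to 94.1), from 0 through 60.1 to 688 CPM. After thinning the counts of cells were 14, 17, 38 and 32. Pooled Uhrf1 was 13.0 CPM (11.8 to 14.2) and 19.3 CPM (17.8 to 20.9) at the 8-cell stage, and 263 CPM (259 to 267) in control and 83.5 CPM (81.1 to 86.03) in mimic at the 32-cell stage. The ratio of stages was 20.3 (18.5 to 22.3) in control and 4.33 (3.97 to 4.72) in mimic. Mimic was 3.15-fold lower than control at the 32-cell stage (3.04 to 3.26), and the cells overlapped, with the highest single cell of all in the mimic group. All 3 mimic runs, at 94.8, 98.5 and 52.95 CPM, were below both control runs, at 301 and 206.5 CPM. Across the 13 alternatives for this comparison the log2 difference lay between -2.67 and -1.30, past the limit in each.

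Dnmt1 (chromosome 9, 20907209 to 20959888, minus strand), the methyltransferase that copies methylation, showed a smaller difference at the same place. Its cells spanned 0 to 166.6 CPM with a median of 24 in 8-cell control and 0 to 119.8 CPM with a median of 30.9 in 8-cell mimic. In the 32-cell control the median was 65.2 CPM with a highest cell of 206 CPM, and in the mimic 15.5 CPM with a highest cell of 202 CPM. Detection was 25 of 30, 18 of 24, 37 of 39 and 28 of 39 cells. Pooled Dnmt1 came to 42.9 CPM (40.8 to 45.0), 37.9 CPM (35.8 to 40.1), 72.3 CPM (70.1 to 74.6) and 35.6 CPM (34.03 to 37.2). The 32-cell mimic was 2.03-fold lower than control (1.92 to 2.15), which is a log2 of -1.002 and sits on the limit itself, past it in 9 of 13 alternatives. Runs were at 72.8 and 71.6 CPM in control and at 45.9, 34.96 and 23.2 CPM in mimic, and the log2 difference was -0.81 without the third mimic run. Cells with a count of both Dnmt1 and Uhrf1 numbered 37 of 39 in 32-cell control and 25 of 39 in 32-cell mimic, and cells with neither 0 and 3.

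**Figure D3:**
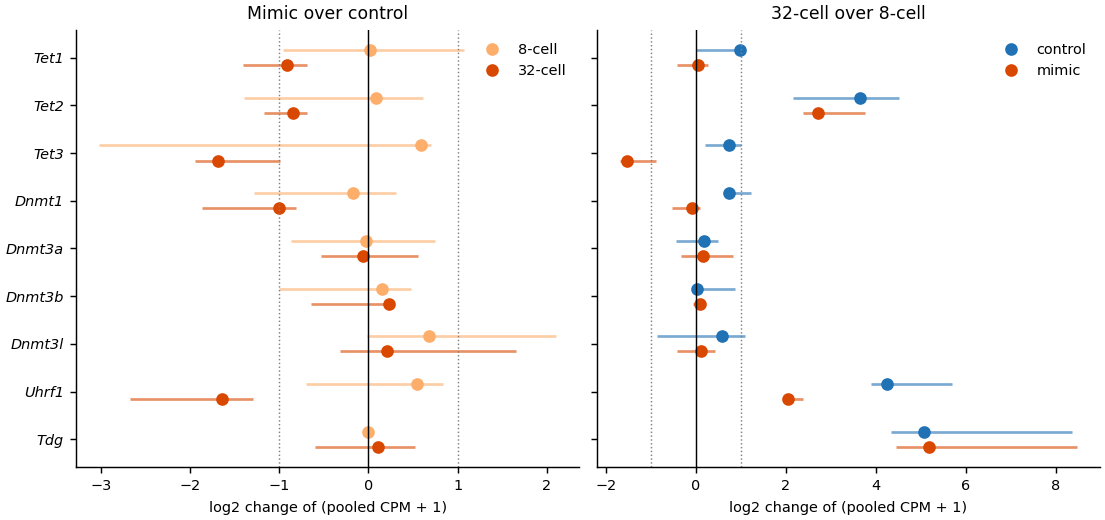
Log2 change of (pooled CPM + 1) of each member on the horizontal axis, mimic over control at both stages on the left and 32-cell over 8-cell in both treatments on the right; points are the reported values, lines span the lowest and highest value over the alternatives, and dotted lines mark -1 and 1. For mimic over control, the lines of Tet1, Tet2, Tet3, Dnmt1 and Uhrf1 lie wholly below 0 at the 32-cell stage, while at the 8-cell stage those of all 8 members with a count cross 0.

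Of the de novo enzymes, neither Dnmt3a nor Dnmt3b reached the limit in a comparison of whole groups. Dnmt3a (chromosome 12, 3806007 to 3914443, plus strand) had medians of 90, 66.7, 94.5 and 89.6 CPM and pooled levels of 84.9 CPM (81.95 to 87.9), 83.1 CPM (79.9 to 86.3), 96.6 CPM (94.1 to 99.2) and 92.5 CPM (90.0 to 95.1) in the order of groups used above. The ratio of mimic to control was 0.978 (0.928 to 1.03) and 0.958 (0.921 to 0.995) at the stages. Runs within a group were farther apart than the groups, at 119.6 and 62.5 CPM in 32-cell control and at 135, 77.96 and 54.0 CPM in 32-cell mimic. Dnmt3b (chromosome 2, 153649450 to 153687730, plus strand) had pooled levels of 44.8 CPM (42.7 to 47.0), 50.1 CPM (47.6 to 52.7), 45.9 CPM (44.1 to 47.7) and 54.0 CPM (52.0 to 56.0), with runs of 32-cell cells between 44.6 and 56.0 CPM. Its medians were 26.3, 23.96, 58.55 and 33.1 CPM, and averaging log2(CPM + 1) over cells gave log2 differences of 0.87 for stage in control and -0.65 for treatment at the 32-cell stage. By that average Dnmt3a differed by -0.87 between treatments at the 8-cell stage. The highest cells of Dnmt3b were at 179, 178, 139.4 and 316 CPM, and between 73.3% and 89.7% of the cells of a group had a Dnmt3b count. Reads of Dnmt3b could in part be shared with its near copy Dnmt3c, which had 5.12 and 1.39 CPM at the 8-cell stage and 0 counts at the 32-cell stage, where 3 counts would be 0.0527 and 0.0563 CPM. Pseudogenes resembling Dnmt3a, Dnmt3l and Tdg are annotated too, and how reads were split with them is not known.

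Dnmt3l (chromosome 10, 78041947 to 78063622, plus strand), which lacks catalytic activity of its own and stimulates the de novo enzymes, was low and uneven. It was detected in 25 of 30, 18 of 24, 24 of 39 and 27 of 39 cells, with medians of 15.8, 20.2, 6.67 and 19.1 CPM and highest cells at 51.6, 196, 128 and 124 CPM. Pooled Dnmt3l was 18.6 CPM (17.2 to 20.0), 30.3 CPM (28.4 to 32.3), 28.2 CPM (26.9 to 29.6) and 32.8 CPM (31.3 to 34.3). No comparison between whole groups reached the limit, the nearest being mimic over control at the 8-cell stage at a log2 of 0.68. In the 8-cell mimic 3 of the 24 cells held 45.6% of the summed CPM. The runs of the 32-cell groups interleaved, at 40.6 and 9.76 CPM in control and at 18.8, 54.4 and 27.3 CPM in mimic. Per kb, Dnmt3l was the largest of the 4 DNMT transcripts in 8-cell mimic (38.4% of the sum) and in both 32-cell groups (32.0% and 39%). In 8-cell control Dnmt3b and Dnmt3l were at 28.3% and 27.8%. Over the union of exons Dnmt1 led in 32-cell control at 28% and Dnmt3b in the other groups, so that order rests on the length used.

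Tdg (chromosome 10, 82629828 to 82650799, plus strand), the glycosylase that removes oxidised methylcytosine, had no count in any of the 54 8-cell cells. Where no count was seen, 3 counts over the group were taken as the limit, which in 30 control and 24 mimic cells is a share of 10.0% and 12.5% of cells and a pooled level of 0.0817 and 0.0971 CPM. The upper ends of the wider 95% intervals were 11.6% and 14.2% of cells, and 0.1004 and 0.1193 CPM. At the 32-cell stage 35 of 39 control cells (89.7%, 75.8 to 97.1) and 37 of 39 mimic cells (94.9%, 82.7 to 99.4) had it. Control cells ranged from 0 through 26.99 to 73.2 CPM and mimic cells from 0 through 29.8 to 149.7 CPM. Pooled Tdg was 32.7 CPM (31.2 to 34.2) and 35.2 CPM (33.6 to 36.8), at least 400.1-fold and 362.9-fold higher than the limits of 3 counts. With the intervals of both stages taken into account the lower bounds were 325.1-fold and 294.8-fold. Of 6166 genes with at least 20 CPM in both 32-cell groups, 17 (0.276%) had no count in any 8-cell cell, Tdg among them. The mimic to control ratio at the 32-cell stage was 1.08 (1.01 to 1.15), but the mimic runs spread from 9.73 through 33.8 to 57.9 CPM around control runs of 32.7 and 32.6 CPM.

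**Figure D4:**
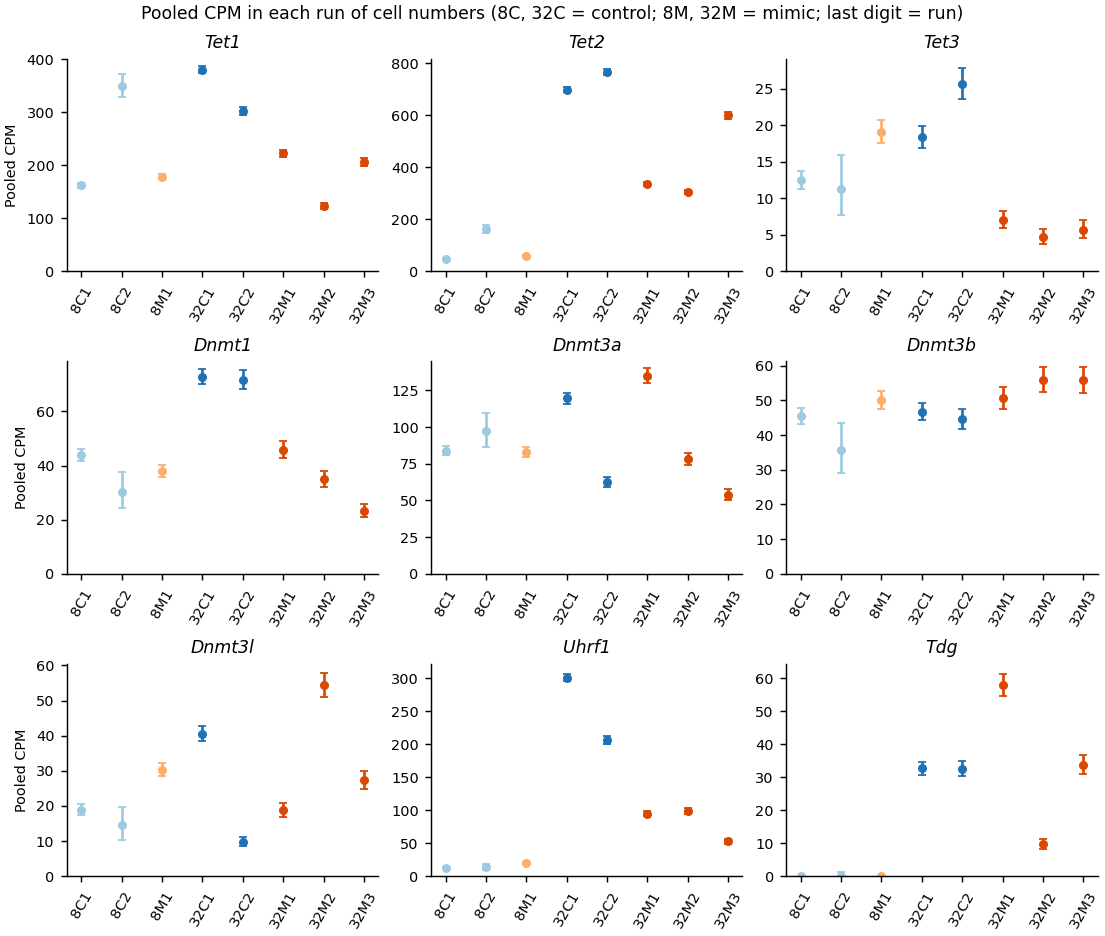
Pooled CPM of each member (vertical axis, from 0, a different scale in each panel) in each run of consecutive cell numbers, with exact Poisson 95% intervals; 8C and 32C are control, 8M and 32M mimic, and the last digit is the run. All 32-cell mimic runs lie below both 32-cell control runs for Tet1, Tet2, Tet3, Dnmt1 and Uhrf1, and not for Dnmt3a, Dnmt3b, Dnmt3l or Tdg.

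The 32-cell cells were further split into cells resembling the inner cell mass (ICM-like), which forms the fetus and yolk sac, and cells resembling the trophectoderm (TE-like), which forms the placenta. The split came from clusters made without the members, and names came from 9 markers of each lineage, of which 8 and 9 were higher in the cells named for them. Of the 10 leading genes by fold, the ICM-like cluster held 1 ICM marker, Tdgf1, and also the Y-linked Uty, and the TE-like cluster held no marker of either lineage. Control held 25 ICM-like and 14 TE-like cells, and mimic held 9 and 30. Clusters from all genes gave 13 ICM-like mimic cells and a score of the markers 17, with control at 25 in each. In TE-like cells the ICM markers summed to 996 CPM in mimic and 549.9 CPM in control, and the TE markers to 6777 and 10891 CPM. The study, staining embryos for Sox2 and Cdx2 protein, reported no shift in the share of either lineage with the lower mimic dose. Of the ICM-like mimic cells 6 came from the first run, 3 from the second and 0 from the third, so class and run are not balanced. The score of the markers placed 8 of the TE-like mimic cells with the ICM-like ones, and 5 cells lay within 0.25 of its boundary. Because the same cells made the clusters, what follows describes the classes and tests nothing.

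Tet1 and Dnmt3l were set apart by class in control embryos. Pooled Tet1 was 486 CPM (479 to 494) in ICM-like and 166.6 CPM (161.5 to 171.8) in TE-like control cells, a ratio of 2.92 (2.82 to 3.02). ICM-like cells ran from 62.4 through 482.5 to 893 CPM and TE-like cells from 23.4 through 174.2 to 402 CPM, so the classes overlapped. Without the first control run the log2 difference of Tet1 was 0.59 in place of 1.54. Dnmt3l was 5.97-fold lower in ICM-like cells (5.25 to 6.79), at 9.03 CPM (8.03 to 10.1) against 53.9 CPM (51.0 to 56.9), with medians of 0.477 and 35.7 CPM. Without the first control run its log2 difference was -3.04 in place of -2.45, but the gene was then under 20 CPM and uncalled. Both calls were thus lost without that run, and Dnmt1, Uhrf1, Tet3 and Dnmt3b passed the limit in their place. These were the calls in control, 1 of 9 members, all of them at 20 CPM or more, higher in ICM-like cells against 11.9% of 7239 genes and 1 lower against 10.1%. In mimic the same 2 genes differed by log2 values of 0.72 and -0.97, neither past the limit, and only 2 of the 9 ICM-like mimic cells had a Dnmt3l count. The log2 difference of Dnmt3l in mimic passed the limit in 7 of 13 alternatives, and that of Tet1 in 2. The only call there was Uhrf1, higher in ICM-like mimic cells at 200.2 against 53.9 CPM, 1 of the 8 members with at least 20 CPM against 10.3% of 7505 genes higher and 0 against 9.10% lower. In control the same ratio for Uhrf1 was 1.69 (1.63 to 1.75).

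**Figure D5:**
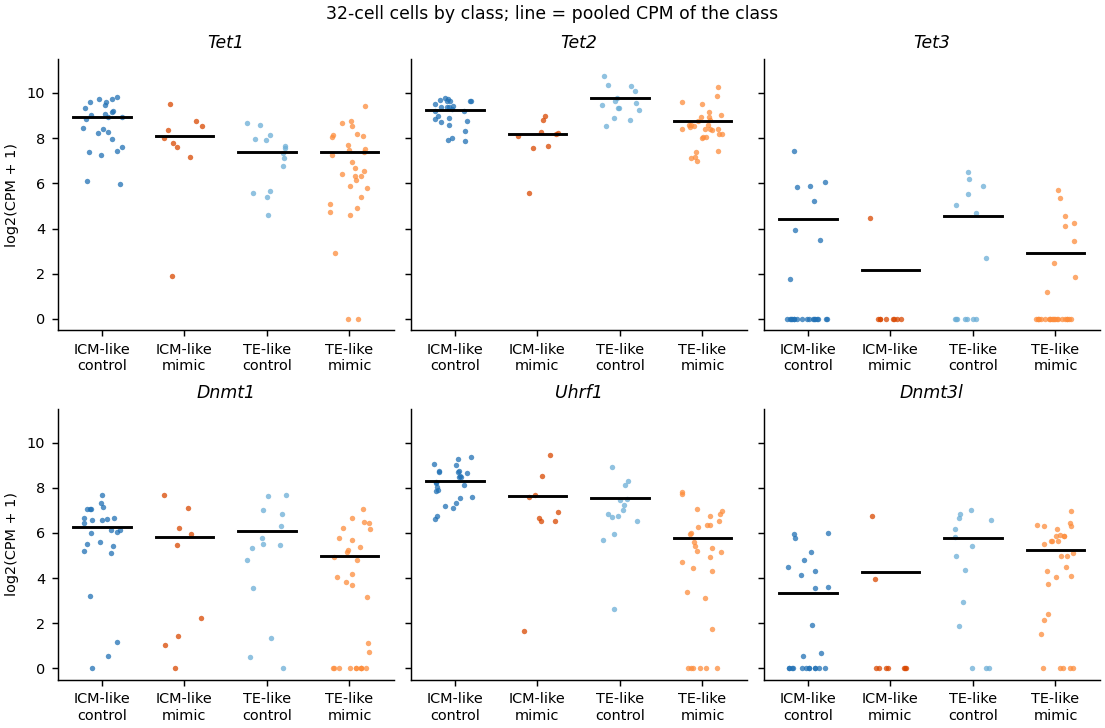
Level of 6 members in each 32-cell cell, as log2(CPM + 1) on the vertical axis, by class and treatment on the horizontal axis; points are cells and lines the pooled CPM of the class. ICM-like control cells are higher in Tet1 and lower in Dnmt3l than TE-like control cells, and pooled Tet2 stands at 290 against 606 CPM in ICM-like and at 433 against 889 CPM in TE-like cells, mimic before control.

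Within classes, Tet2 and Tet3 were lower in mimic than in control in both classes. Tet2 stood at 290 CPM (280 to 301) in ICM-like mimic against 606 CPM (597 to 614) in ICM-like control cells, 2.09-fold lower (2.01 to 2.17). In TE-like cells it was 433 CPM (426.5 to 439) against 889 CPM (877 to 901), 2.05-fold lower (2.01 to 2.09). Both differences were larger than that between the unsplit groups. With clusters made from all genes the log2 difference in ICM-like cells was -0.48 in place of -1.06. Tet3 was at 3.43 against 20.4 CPM in ICM-like cells, where 1 of 9 mimic and 8 of 25 control cells had a count and 3 control cells held 71.1% of the summed CPM, and at 6.55 against 22.6 CPM in TE-like cells. Uhrf1 was 3.5-fold lower in TE-like mimic cells (3.33 to 3.68), at 53.9 against 189 CPM, and 318.5 against 200.2 CPM in ICM-like cells gave a log2 of -0.67. Of the ICM-like mimic cells 3 held 67.8% of the summed Uhrf1 CPM, and their median was 122 CPM against 304 CPM in control. Dnmt1 was 2.21-fold lower in TE-like mimic cells (2.05 to 2.37) and differed by a log2 of -0.44 in ICM-like cells. In ICM-like cells the Dnmt1 difference was -1.43 when log2(CPM + 1) was averaged over cells and -0.09 without the first mimic run. There 3 mimic cells held 78.9% of the summed Dnmt1 CPM. Tet1 had a log2 difference of -0.02 between TE-like mimic and control cells and of -0.84 in ICM-like cells. The classes were not compared by a test. In TE-like cells the median of Tet1 was 97.1 CPM in mimic and 174.2 CPM in control. Its log2 difference there ranged over the alternatives from -0.74, averaging log2(CPM + 1) over cells, to 0.53 without the second control run. In ICM-like cells it ranged from -1.42 to -0.40.

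In counts, 2 of the 8 members with at least 20 CPM were lower in ICM-like mimic cells against 10.1% of 7482 genes, and 0 were higher against 12.6%. The call of Tet3 there was lost without the first control run, with thinned cells and with mitochondrial counts in the totals, and that of Tet2 without the second control run or the second mimic run, when all genes made the clusters, and when a marker score set the classes. TMM factors turned those shares into 12.4% lower and 10.3% higher. In TE-like cells 4 of 9 were lower against 8.05% of 7327 genes, and 0 were higher against 11.8%. Without the first run of control cells, only Tet3 was called in TE-like cells, and the log2 difference of Uhrf1 there was -0.78 in place of -1.79 and that of Dnmt1 -0.56 in place of -1.12. Tet2 was also lost without the first mimic run, Tet2 and Dnmt1 without the second and Dnmt1 without the third. Of the 14 TE-like control cells, 7 came from the first control run. Without the second control run the difference of Tet3 in TE-like cells was -0.68 in place of -1.65.

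At the 8-cell stage mimic and control had pooled levels within 1.63 times of each other for all 8 members with a count. The groups there held both kinds of cell, 16 control and 3 mimic cells with Xist and no Y-linked count, and 7 and 8 with Y-linked counts above Xist. A further 7 control and 11 mimic cells held both with Xist higher, and 2 mimic cells held neither, so that 13 of the 24 mimic cells belong to no kind compared here. Among the first kind Dnmt3l was higher in mimic by a log2 of 2.11 and Dnmt1 and Dnmt3b had log2 differences of -1.28 and -1.003, with 3 cells on the mimic side. Among the second kind Tet1 was higher by 1.07, and Dnmt3l was at 51.8 against 14.3 CPM. In these smaller sets 17% of all genes were higher and 15.7% lower among the first kind, and 17.5% and 19.7% among the second. Over these and the other alternatives the 8-cell differences of all 8 members with a count took either sign.

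Genes around the members were read from 6 lists of 87 measured genes. In the 32-cell comparison of treatments 2 of the 61 listed genes with at least 20 CPM were higher in mimic and 3 lower, with a median log2 of 0.06 against 0.01 for all genes, of which 6.87% were higher and 5.36% lower. The lower ones were Zfp57, a zinc finger protein that keeps imprints (154.3 to 65.2 CPM, control to mimic), Hells, a remodeller needed for methylation (193 to 85.6 CPM), and Setdb1, a histone H3 lysine 9 methyltransferase (83.8 to 40.2 CPM). The higher ones were Ogt, the X-linked O-GlcNAc transferase that binds TET proteins (264 to 619 CPM), and Uhrf2, the paralogue of Uhrf1 (11.9 to 28.98 CPM). Uhrf2 and Uhrf1 thus differed in opposite directions over whole groups, whereas in ICM-like cells Uhrf2 was at 11.7 CPM in mimic and 15.6 CPM in control. Ogt, at chromosome X, 101640060 to 101684351, was higher in the same 32-cell group as Xist, and the part of Xist in it was not tested. At the 8-cell stage Xist was at 587 and 380 CPM and Ogt at 160.8 and 209.5 CPM, mimic before control.

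By list, maintenance partners gave 1 higher and 1 lower of 9 genes at the 32-cell stage, de novo partners and imprint guards 0 and 2 of 9, TET partners and cofactor supply 1 and 0 of 15. Base excision and other removal (10 genes), methyl-CpG readers (3 genes) and methyl donor supply (15 genes) gave none in either direction. Zfp57 was lower in ICM-like mimic than in ICM-like control cells (62.1 against 234 CPM) and had 65.96 against 47.7 CPM in TE-like cells. In TE-like cells 11 of 60 listed genes were higher and 3 lower in mimic, against 11.8% and 8.05% of all genes, led by Uhrf2 (33.4 against 6.86 CPM), Kat5, an acetyltransferase (54.9 against 16.5 CPM), and Mthfd2, a folate enzyme (130 against 41.9 CPM). Zbtb38, a reader of methylated CpG, followed (21.1 against 6.86 CPM), as did Ogt (563 against 202 CPM), and Hells was lower (81.2 against 199.5 CPM). In ICM-like cells 3 of 59 were higher and 2 lower, against 12.6% and 10.1% of all genes. The higher ones were Ogt (840 against 310.2 CPM), Cxxc1, which binds unmethylated CpG (79.9 against 30.6 CPM), and Bhmt, which makes methionine from betaine (2250 against 1101 CPM). The lower ones were Zfp57 and Neil1, a DNA glycosylase (13.5 against 28.7 CPM). At the 8-cell stage 2 of 57 were higher and 2 lower in mimic, against 6.96% and 6.09% of all genes. The higher ones were Uhrf2 (22.4 against 3.95 CPM) and Setdb1 (113.7 against 43.6 CPM), and the lower ones Zfp57 (27.2 against 63.3 CPM) and Cul4b (19.5 against 44.7 CPM). Over whole groups Uhrf2 was thus higher and Zfp57 lower in mimic at both stages, while Setdb1 was higher at the 8-cell and lower at the 32-cell stage.

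With stage, 14 of 59 listed genes were higher and 8 lower at 32 cells in control embryos, with a median log2 of 0.05 against 0.20 for all genes. In mimic the counts were 17 and 9 of 62. Of all genes 30% were higher and 20.1% lower in control, and 29.1% and 18.8% in mimic, so the listed genes were near or below the background. Mbd1, a reader of methylated CpG, went from 0.245 to 43.3 CPM in control and from 1.75 to 25.1 CPM in mimic. Idh3a, a subunit of the mitochondrial isocitrate dehydrogenase that yields α-ketoglutarate, which TET enzymes consume, went from 35.1 to 487 CPM and from 38.9 to 321 CPM. Shmt2, a folate enzyme of mitochondria, went from 25.4 to 134 CPM and from 20.2 to 199 CPM. Ahcy, which clears the product of methyl transfer, went from 6.29 to 35.7 CPM in control. In mimic Mthfd1l, a folate enzyme, went from 2.04 to 21.96 CPM, Cul4b, a ubiquitin ligase scaffold, from 19.5 to 144.5 CPM, and Zbtb38 from 3.04 to 20.98 CPM. In the other direction Mat2a, which makes the methyl donor S-adenosylmethionine, went from 1585 to 208 CPM and from 1084 to 358 CPM, and Apobec3, a cytidine deaminase, from 54.4 to 5.70 CPM in control. Dppa3, the protein that shields maternal methylation and keeps UHRF1 from chromatin, was at 5725 and 5230 CPM at the 8-cell and at 2286 and 2977 CPM at the 32-cell stage.

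Between classes, 7 of 59 listed genes were higher and 1 lower in ICM-like than in TE-like control cells, against 11.9% and 10.1% of all genes. Zfp57 (234 against 47.7 CPM), Bhmt (1101 against 319 CPM), Mbd4, a glycosylase that reads methylated CpG (42.9 against 12.4 CPM), and Mthfd2 (97.6 against 41.9 CPM) were among the higher. Mthfd1l was at 24.6 CPM in ICM-like cells and had no count in TE-like control cells. Idh3a was lower (313.5 against 718 CPM). In mimic 6 of 61 were higher and 3 lower, against 10.3% and 9.10%. Bhmt (2250 against 698 CPM), Ehmt1, a histone H3 lysine 9 methyltransferase (92.9 against 34.3 CPM), Idh1, which makes α-ketoglutarate in the cytosol (1036 against 459.9 CPM), and Cdca7, a partner of Hells (65.96 against 30.2 CPM), were among the higher. Kdm1b, a histone demethylase (1.48 against 34.4 CPM), and Uhrf2 (11.7 against 33.4 CPM) were lower.

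Across all cells, the genes whose log2(CPM + 1) followed Tet2 most closely, among 8081 genes, were Glrx, Ywhaz and Snhg11 (Pearson r of 0.77, 0.77 and 0.76). Those for Uhrf1 were Glrx, Gapdh and Psme2 (0.69, 0.68 and 0.67), and those for Tdg were Klf6, Dppa1 and Glrx (0.83, 0.82 and 0.82). With each group centred on its own mean the closest genes to these 3 members were Atp6v1f, Pecam1 and Optn, at 0.38, 0.42 and 0.51, all lower than the values over uncentred cells. For the other 6 members the highest r over all cells lay between 0.34 and 0.42. Between members, Spearman's rho within a group was mostly near 0. In 32-cell cells Tet2 and Uhrf1 had rho of -0.35 in control and -0.42 in mimic (39 cells each), but -0.02 and 0.15 at the 8-cell stage and -0.07 over all cells centred on their groups. Tet1 and Dnmt3l had -0.40 and -0.29 at the 32-cell stage. At the 8-cell stage they had 0.34 and 0.37 (30 and 24 cells). Dnmt3a and Dnmt3b had 0.51 in 8-cell mimic and between -0.16 and 0.10 in the other groups. Cells of a group share embryos, depth and class, and these coefficients carry no p-value.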

How the data were processed

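Cells were sequenced by Smart-seq2, and the authors aligned reads with STAR 2.5.1b to mm10 (10x annotation mm10-2020-A) and estimated gene counts with RSEM 1.3.0 under its single-cell prior, per the labels, their processing notes and the study's methods. The table used here, as the authors deposited it, holds expected counts, all of them whole numbers. The study kept cells with at least 3000 genes and at most 10% mitochondrial counts, and 0 cells fell outside that. No embryo is named, so groups were pooled and not tested. CPM left out 13 mitochondrial genes, changes used a pseudocount of 1, and calls needed 20 CPM on either side and a log2 of 1. Depth per cell was 544866 to 3461022 counts, which fixes the counting intervals and not the spread between embryos. Cells were picked singly and no doublet caller was run. Seurat 5.3.0 clustered log-normalised values (2000 variable genes, 25 components), TMM factors came from edgeR 4.0.16, and intervals from scipy 1.17.1. The calculation of the pooled change was checked on simulated counts with known fold changes and counting error alone. They held no spread between cells or embryos, so the calls themselves were not tested. UTRs, lengths and coordinates came from GENCODE M21, which is not the annotation used for counting. The named genes are the 9 members, the listed genes with the largest change past the limit in each comparison (at most 6), 3 genes most like each member, and Xist with Y-linked genes. Dppa3 and further values of listed genes in other comparisons were added after values were seen. Members, lists and markers were chosen with earlier results of these data known. Alternatives were per-cell means, pseudocount, filters, mitochondrial totals, TMM, thinning, other classes, and leaving out runs or kinds of cell.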

Additional observations from a re-analysis of the deposited data

How the results depend on the processing

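Of the alternative counts of members past the limit, 79 stayed within 1.5 times of the reported count and 24 did not, and a count within that range did not always name the same members. No member called in a comparison took the opposite sign under an alternative there, whereas uncalled members did: Dnmt3a kept its sign in 8 of 13 alternatives between treatments at the 32-cell stage and Dnmt3l in 6 of 11 between stages in mimic. Averaging log2(CPM + 1) over cells gave 5 in place of 3 members for stage in control, 6 in place of 2 for mimic in ICM-like cells, and 5 in place of 2 and 4 in place of 1 between classes in control and mimic, while the share of all genes past the limit also grew, for stage in control to 35.8% higher and 24.7% lower and for mimic in ICM-like cells to 17.2% and 17.4%. The ICM-like comparison of treatments gave 1 with mitochondrial counts in the totals, with thinned cells and with clusters from all genes. Between classes in mimic the count was 2 with mean CPM, a pseudocount of 0.1, TMM, thinning or clusters from all genes. Thinning gave 1 in place of 3 for mimic at the 32-cell stage, as Dnmt1 came just inside the limit and Tet3 under 20 CPM. At the 8-cell stage Xist-only cells gave 3 and cells with Y-linked counts above Xist 2, in place of 0, where between 15.7% and 19.7% of all genes passed the limit in each direction.

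Leaving out a run gave 0 to 2 members for mimic at the 8-cell stage, 2 to 4 at the 32-cell stage, 3 to 5 for stage in control, 3 for stage in mimic, 2 to 6 for mimic in ICM-like cells, 1 to 4 in TE-like cells, 3 to 4 between classes in control and 2 to 4 in mimic. The value of 2 at the 8-cell stage sets 2 control cells against 24, with 24% of all genes higher and 18.6% lower. The value of 6 in ICM-like cells leaves out the first mimic run, with 19% higher and 19.1% lower. The causes were not tested. No paired analysis was possible because the labels tie no cells across groups and no test was run. Genes with few counts, Tet3 above all, are limited by how many cells held them.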
